A study of Mus musculus with 4 samples.

Results

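The interleukin 1 family genes Il1a, Il1b, Il1f9, Il18, Il33, Il1rn, Il1r2 and Il1rap and the inflammasome genes Casp1 and Nlrp3 were examined. These 10 genes were chosen by name, and 10 of 10 had a value among the 19938 genes measured. The samples were bone marrow cells of Nes-gfp mice on a C57BL/6 background, in which the nestin promoter drives green fluorescent protein. Reporter-positive cells without CD45, CD31 or Ter119 were sorted 10 weeks after transplantation of marrow. The 3 MPN mice (myeloproliferative neoplasm) had received cells with Mx1-cre, an inducible recombinase active in blood cells, and a mutant JAK2. The 1 control mouse had received control cells, so both groups were transplanted Nes-gfp hosts. The study concerned damage to the sympathetic nerves of the marrow niche in MPN, and each sample was hybridised to its own array.

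Interleukin 1 beta, the product of Il1b, is made as an inactive precursor that caspase-1, the product of Casp1, cuts once a sensor such as NLRP3 has assembled an inflammasome. It signals through a receptor that pairs with the accessory chain encoded by Il1rap. The antagonist encoded by Il1rn occupies that receptor without signalling, and the product of Il1r2 binds the cytokine as a decoy. Il1f9 encodes IL-36 gamma, a relative that signals through Il1rl2 together with the same accessory chain. In marrow these cytokines are made mainly by neutrophils, monocytes and macrophages, and mesenchymal stromal cells can respond to them.

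Il1b and Il1f9 were the 2 genes of the 10 that lay at least 2-fold above the control mouse in every MPN mouse, a size that 1.13% of all genes reached. None of the 10 was as far below it in every MPN mouse, where 5.78% of all genes were. The control value of Il1f9, 4.64, was under the background limit. Its 2-fold call in MPN mouse 2, at 6.02, is therefore uncertain. Without MPN mouse 2 the count higher was 4, and without MPN mouse 1 the count lower was 1. With 1 mouse left out the rule covers 2 arrays and is easier to pass. The share of all genes under that rule is not given, so these 2 counts have no background beside them. The decoy receptor gene Il1r2 was far above the control on 2 MPN arrays and close to it on the third, while the antagonist gene Il1rn had no common direction. Il18 was lower on each MPN array but stayed under the background limit on all 4 arrays. By limma, 0 of the 10 passed the test at an adjusted p of 0.05, a threshold that 0.0% of all genes passed. At an unadjusted p under 0.05, Il1b and Nlrp3 were higher in MPN, where 3.97% of all genes were, and Il18 was lower, where 8.63% were.

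Values are deposited log2 values. The background limit of 5.21 is the 95th percentile of 1190 smell and pheromone receptor genes (Olfr and Vmn), taken as silent in marrow. Of the 10 genes, 7 had a group mean above it: Il1b, Il1rn, Il1r2 and Casp1 in both groups, Il1f9 and Nlrp3 in MPN only, and Il1rap in the control only. Il1a, Il18 and Il33 lay under it in both groups, so no fold is given for them. In MPN the median gene was 0.18 higher, and the median of the Olfr and Vmn genes 0.255 higher. Over genes, Pearson's r was 0.872 to 0.886 between MPN arrays and 0.802 to 0.875 between MPN arrays and the control. The samples also differed in sex-linked RNA: Xist was at 8.37 to 9.31 on the MPN arrays against 3.30, and the Y-linked gene Kdm5d at 4.14 to 4.16 against 7.72. This difference and the transplant group cannot be told apart. With the 1 control array assumed to vary like the MPN arrays, the spread rests on 3 mice.

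**Figure D1:**
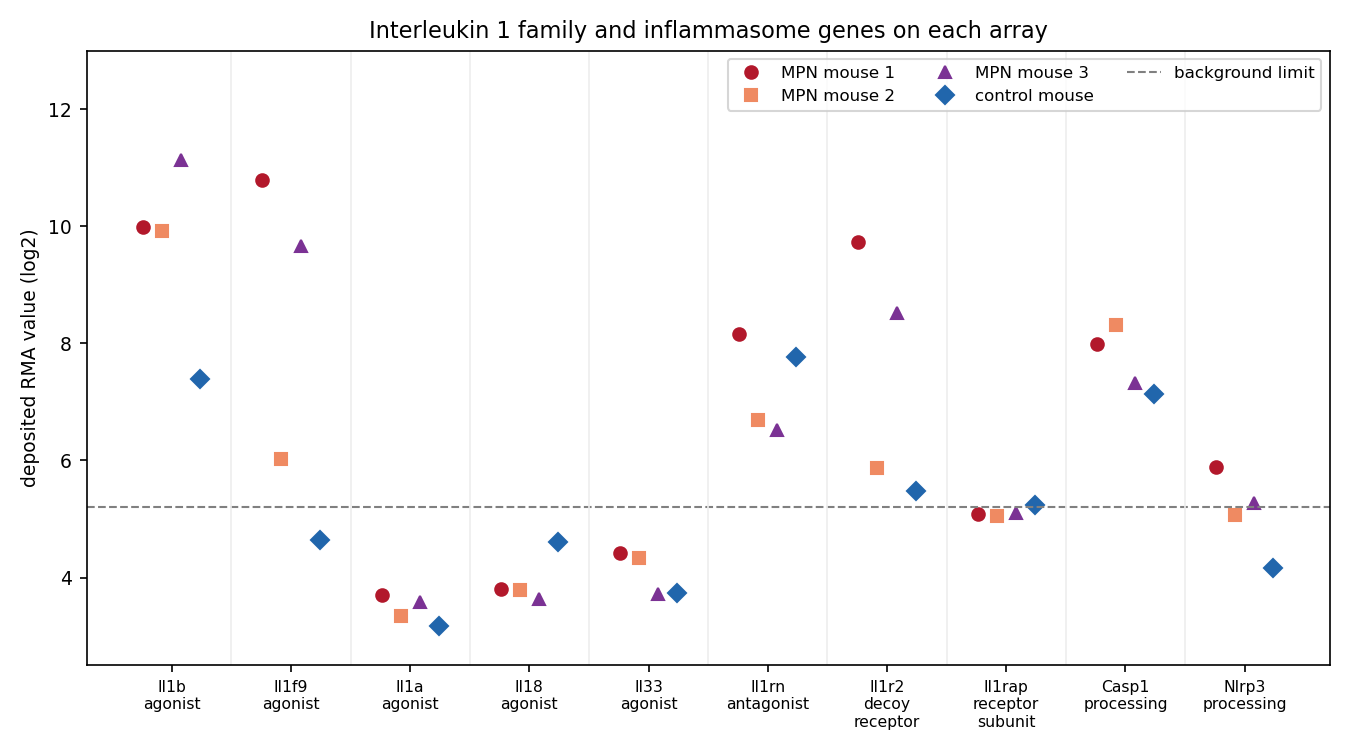
Deposited log2 value of the 10 genes (y axis) on each array, with genes grouped by role along the x axis; each symbol is 1 mouse and the dashed line is the background limit of 5.21. Levels are comparable within a gene, not between genes. Il1b, on the left, lies between 9.92 and 11.13 on the MPN arrays and at 7.39 on the control array, while Il1a, Il18 and Il33 lie under the limit on all 4 arrays.

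Il1b, the gene of interleukin 1 beta, was at 9.99, 9.92 and 11.13 in MPN mice 1, 2 and 3, against 7.39 in the control mouse. All 3 MPN values lay above the control, by at least 2.53, which is 5.78-fold, and the MPN mice lay within 1.22 of each other. The mean difference was 2.96 (SE 0.62), or 7.79-fold, with limma's unadjusted p = 0.0134 and adjusted p = 0.243. Across the genome, 99.8% of genes had a smaller signed difference. Over all 10 alternatives of processing or left-out mice, the difference of Il1b stayed between 2.57 and 3.18. The alternatives that averaged probe sets, dropped genes under background or put a trend in the variance prior could not change it.

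Among markers of blood cells, the pan-leukocyte and neutrophil sums were higher on the same MPN arrays. Not all blood cell lists did so: the B cell sum was above the control in MPN mouse 2 only, at 2731 against 1017. Of 10 pan-leukocyte genes, 9 lay at least 2-fold above the control on each MPN array, beside 1.13% of all genes. Their summed linear level was 9163 to 14041 on the MPN arrays against 1988. Ptprc, which encodes the CD45 used to gate cells out, was at 9.46 to 10.40 in MPN against 7.07, above background on every array. Of 12 neutrophil genes, 9 were at least 2-fold higher on each MPN array, beside the same 1.13%. Their summed level was 24775 to 35680 in MPN against 7409. Of 12 mesenchymal stromal genes, 11 were at least 2-fold lower on each MPN array, beside 5.78% of all genes. The summed level of the stromal list was 1072 to 1802 against 13644. Nes itself, the gene behind the reporter, was under background in both groups, at 3.92 to 4.56 against 4.26. In sorted bulk samples, fewer cells of a type and less RNA per cell cannot be told apart, and the part of leukocyte RNA in the values of Il1b was not tested.

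Monocyte and macrophage genes did not move as one. Of the 10 measured, 4 lay higher and 2 lower on all 3 MPN arrays, where 46.8% and 21.1% of all genes did. The group means of the defining genes Csf1r, Adgre1, Mrc1 and Ms4a7 were under background, though Csf1r was above it in MPN mouse 3, at 5.84. Ccr2, a chemokine receptor of inflammatory monocytes, was the 1 gene of the list at least 2-fold higher on each MPN array (1.13% of all genes). It was at 7.10, 9.96 and 8.46 in MPN mice 1, 2 and 3, against 5.02 in the control mouse. Vcam1 and Mertk were the 2 genes of the list at least 2-fold lower on each MPN array (5.78% of all genes). Mertk was at 4.55, 4.58 and 4.48, against 6.79. The summed level of the list was 686 to 1398 on the MPN arrays against 2558 on the control array. Most of the control sum was Vcam1, which stromal cells also express. Without Vcam1, left out after its values were seen, the sum was 453 to 1335 in MPN against 416. That sum kept Ccr2, the 1 gene of it at least 2-fold higher, which made up most of it in MPN mouse 2. The 8 endothelial genes were all under background in the control and summed to 243 to 286 in MPN against 189, and 5 erythroid genes summed to 246 to 566 against 231.

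**Figure D2:**
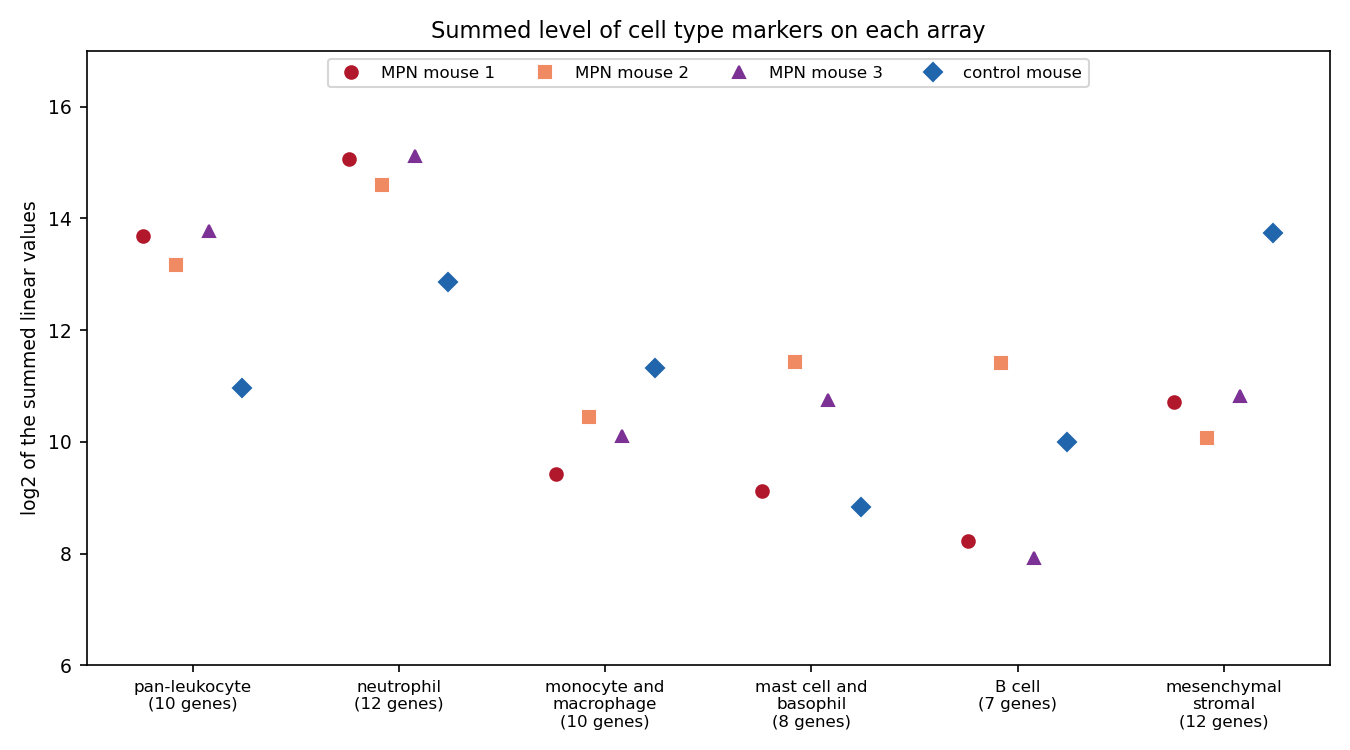
Log2 of the summed linear values of each marker list (y axis) on each array, by list (x axis), with the number of genes measured in each. Neutrophil and pan-leukocyte sums are higher in every MPN mouse than in the control mouse, and the mesenchymal stromal sum is lower in every one; B cell and mast cell sums separate MPN mouse 2 from MPN mouse 1.

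The promoters of Il1b and Il1f9 are shown because these 2 genes were at least 2-fold apart on each MPN array. The sequences are RefSeq's, build GRCm38.p6, from 250 bases before to 50 after the start site, read 5′ to 3′ along the gene. Capitals mark the motifs found.
Il1b, chr2:129371090-129371389, minus strand: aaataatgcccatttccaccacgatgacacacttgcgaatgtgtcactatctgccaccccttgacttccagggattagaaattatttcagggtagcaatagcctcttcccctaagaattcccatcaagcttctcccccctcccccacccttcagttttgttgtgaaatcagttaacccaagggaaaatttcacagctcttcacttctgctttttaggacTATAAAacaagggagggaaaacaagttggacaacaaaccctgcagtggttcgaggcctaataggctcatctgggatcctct
Il1f9, chr2:24186226-24186525, plus strand: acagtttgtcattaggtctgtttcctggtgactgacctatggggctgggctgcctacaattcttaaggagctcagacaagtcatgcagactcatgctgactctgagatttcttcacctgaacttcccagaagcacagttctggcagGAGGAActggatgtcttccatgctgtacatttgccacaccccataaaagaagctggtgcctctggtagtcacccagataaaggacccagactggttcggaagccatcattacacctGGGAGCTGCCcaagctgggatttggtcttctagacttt

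Searches on both strands used GAGGAA (the core of sites for PU.1, a factor of myeloid cells), TTGCNNAA (C/EBP), a 10-letter NF-kB motif and TATAAA. No pair of matches overlapped in these 2 promoters. The Il1b promoter held 1 TATAAA, at position -31 from the start site, which 13.6% of 32851 promoters hold, and none of the other 3 motifs. The Il1f9 promoter held 1 GAGGAA, at position -104 from the start site, and 1 NF-kB motif, found as GGGAGCTGCC past the start site. Those motifs are in 28.3% and 20.7% of all promoters, and TTGCNNAA, absent from both windows, is in 10.8%. The pair shared none of the 4 motifs, and a missing match says only that these letters are not in this window.

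Il1f9 was at 10.78, 6.02 and 9.66 in MPN mice 1, 2 and 3, against 4.64 in the control mouse. All 3 MPN arrays were above both the control and the background limit, but MPN mouse 2 was only 1.39 above the control while mice 1 and 3 were 6.15 and 5.03 above it. Since the control was under background, the MPN mean is best given as at least 12.3-fold higher, its distance from the background limit. That bound was 6.22-fold without MPN mouse 1 and 32.4-fold without mouse 2. The fitted difference was 4.19 (SE 2.21), with limma's adjusted p = 0.468, and it was 3.21 without mouse 1 and 5.59 without mouse 2. Its spread among MPN mice, an SD of 2.49, was larger than that of 99.4% of the genes above background.

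Il1f9 lies in a row of relatives in the mouse annotation, in the order Il1f8, Il1f9, Il1f6, Il1f5, Il1f10 and Il1rn, with 0 other protein-coding genes between them. The 4 neighbouring ligand genes Il1f5, Il1f6, Il1f8 and Il1f10 were all under background in both groups. Il1f10, whose product is a less studied family member, was the farthest from the control of these, at 4.83, 4.57 and 4.31 against 3.83. Il1f5, which encodes the antagonist of IL-36, was at 4.52, 4.48 and 4.26 against 4.08. Among the neighbours, values above background were therefore read for Il1f9 in MPN and for Il1rn in both groups.

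Il1rl2, the receptor through which IL-36 gamma signals, was at 3.89, 3.64 and 3.83 in MPN mice 1, 2 and 3, against 6.58 in the control mouse. The MPN arrays were all under background and within 0.26 of each other, and the control was above it. The difference was -2.79 (SE 0.19) with limma's adjusted p = 0.0872, and adjusted p ran from 0.0482 to 0.454 over the alternatives. It passed in 1 setting, the setting that brings the arrays to one median of the Olfr and Vmn genes. The ligand gene Il1f9 and its receptor gene thus lay on opposite sides of the control, while the stromal markers named above were lower on the same arrays, and their part in the value of Il1rl2 was not tested.

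The other agonist genes gave no level above background. Il1a, the neighbour of Il1b with 0 protein-coding genes between them, encodes interleukin 1 alpha, which needs no inflammasome to be active. It was at 3.71, 3.35 and 3.59 in MPN mice 1, 2 and 3, against 3.17 in the control mouse. Its difference of 0.38 (SE 0.22, limma's adjusted p = 0.48) is close to the 0.255 by which the background genes themselves were higher. Il18, the cytokine that caspase-1 also activates, was at 3.81, 3.79 and 3.63 in MPN, against 4.61 in the control. The MPN mice lay within 0.18 of each other and below the control, with a difference of -0.87 (SE 0.17), unadjusted p = 0.0107 and adjusted p = 0.22 by limma. Il33, an alarmin of stromal and endothelial cells, was at 4.43, 4.33 and 3.71 in MPN, against 3.74 in the control. MPN mouse 3 lay at the control's value, and the difference of 0.42 (SE 0.37) was about as large as its error, with limma's adjusted p = 0.598.

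Il1rn, the antagonist gene, was at 8.17, 6.69 and 6.52 in MPN mice 1, 2 and 3, against 7.76 in the control mouse. MPN mouse 1 was above the control and mice 2 and 3 were below it, so the groups overlapped. The difference was -0.64 (SE 0.82), with limma's adjusted p = 0.704. Unlike the ligand genes under background, Il1rn had a level on every array. Without MPN mouse 1, Il1rn was the 1 gene of the 10 at least 2-fold lower on each remaining MPN array, a rule easier to pass with fewer arrays.

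Il1r2, the decoy receptor gene, was at 9.74, 5.88 and 8.52 in MPN mice 1, 2 and 3, against 5.48 in the control mouse. MPN mouse 2 was 0.40 above the control, where mouse 1 was 4.26 and mouse 3 was 3.04 above it. The difference was 2.57 (SE 1.75), or 5.92-fold, with limma's adjusted p = 0.526. It was 1.72, or 3.30-fold, without MPN mouse 1 and 3.65, or 12.5-fold, without mouse 2. The SD among MPN mice, 1.97, exceeded that of 98.0% of genes above background. Without MPN mouse 2, the count of the 10 genes at least 2-fold higher was 4, with Il1r2 and Nlrp3 added to Il1b and Il1f9. The rule is easier to pass with fewer arrays, and its share over all genes is not given.

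Il1rap, the shared accessory chain of the receptors for interleukin 1, IL-33 and IL-36, hardly varied. It was at 5.09, 5.06 and 5.10 in MPN mice 1, 2 and 3, against 5.24 in the control mouse. The MPN values lay within 0.038 of each other and just under the background limit, and the control was 0.033 above it. The difference was -0.16 (SE 0.15), with limma's adjusted p = 0.614.

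**Figure D3:**
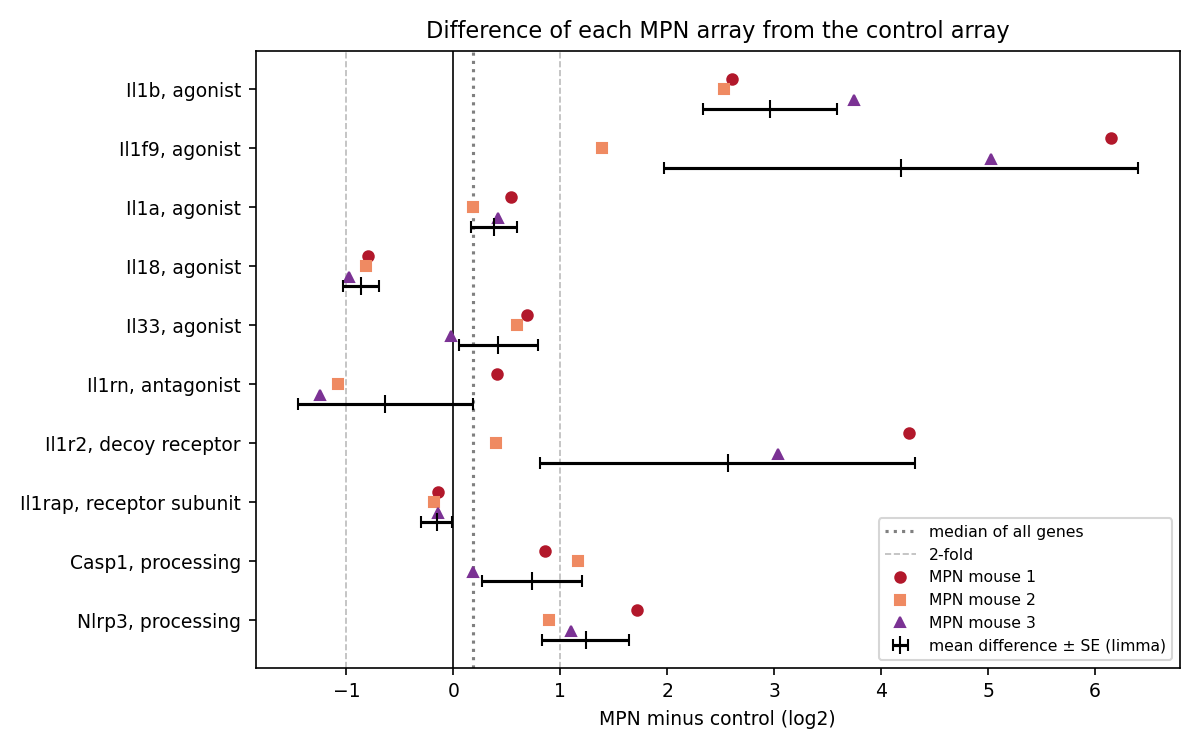
Difference of each MPN array from the control array (x axis, log2) for the 10 genes (y axis), with the mean and its limma SE in black below the symbols; the dotted line is the median of all genes, 0.18, and the dashed lines mark 2-fold. Il1b lies between 2.53 and 3.75 on the 3 arrays, Il1f9 and Il1r2 spread from 1.39 to 6.15 and from 0.40 to 4.26, and Il1rn crosses 0.

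Of the processing genes, Casp1, the protease that matures interleukin 1 beta, was at 7.99, 8.31 and 7.32 in MPN mice 1, 2 and 3, against 7.14 in the control mouse. All 3 were above the control, mouse 3 by 0.18, about the shift of the median gene. The difference was 0.73 (SE 0.47), or 1.66-fold, with limma's adjusted p = 0.506. Nlrp3, the inflammasome sensor, was at 5.89, 5.07 and 5.27 in MPN, against 4.17 in the control. Each MPN array was at least 0.89 above the control, and 2 of the 3 exceeded the background limit. The difference was 1.24 (SE 0.41), with unadjusted p = 0.0474 and adjusted p = 0.39 by limma. With the control and MPN mouse 2 under background, the size of this difference is uncertain.

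The 10 genes differed in how far they moved from the control. Their median difference was 0.58, beside 0.18 over all genes, and ran from 0.32 to 1.24 over the alternatives. All 3 MPN arrays were higher than the control for 6 of the 10, where 46.8% of all genes were, and lower for 2, Il18 and Il1rap, where 21.1% were. These shares lie near the background. Over 9 pairs of genes, the change of one was set against that of the other on each MPN array. An exact permutation over the 4 arrays cannot give a two-sided p below 0.25, so no pair could pass. The lowest permutation p found after adjustment over the 9 pairs was 0.45.

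The change of Il1b exceeded that of its antagonist Il1rn by 2.20, 3.61 and 4.99 log2 units in MPN mice 1, 2 and 3. The mean was 3.60 ± 1.40 (SD, n = 3, exact permutation p = 0.25), with the same direction in 3 of 3 mice. Il1f9 was under background in the control, so its excess over Il1rn is given from the background limit, as at least 5.17, 1.89 and 5.70 in MPN mice 1, 2 and 3, with no test. Against the decoy receptor gene, Il1b had no common direction: the difference of changes was -1.65, 2.13 and 0.71. Its mean of 0.40 ± 1.91 (SD, n = 3, exact permutation p = 1) was within the spread, and was -0.47 without MPN mouse 2.

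The change of Il1b less that of Casp1 was 1.75, 1.36 and 3.57, with the same direction in all 3 mice. The mean was 2.23 ± 1.18 (SD, n = 3, exact permutation p = 0.5). As no pair could pass this permutation, it cannot decide whether the 2 changes differ. Against Il1rap, which hardly varied, the mean was 3.12 ± 0.67 (SD, n = 3, exact permutation p = 0.25). Il1rap lay just under background on the MPN arrays and just above it in the control, so its change is read at the limit. The remaining pairs, Il1a against Il1rn and Il1b against Il18, Il33 and Nlrp3, had means of 1.02, 3.83, 2.54 and 1.72, in which at least 1 gene lay under background.

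The profiles over the 4 arrays fell into different shapes. Among 5486 other named genes that varied by at least 1, the profile of Il1b lay nearest to those of Cenpk, a centromere protein gene, at a root mean square distance of 0.086, Hdc, the histamine-forming enzyme, at 0.135, and Ctsg, the neutrophil protease cathepsin G, at 0.183. Hdc was at 8.39, 8.68 and 9.63 in MPN mice 1, 2 and 3, against 5.88. In these 3 genes, as in Il1b, MPN mouse 3 was the highest and the control was far below all MPN mice. With 4 arrays, likeness describes these libraries only.

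Il1f9 lay nearest to Cxcr2, the chemokine receptor of mature neutrophils, at 0.579, to Ptgs2, an inducible prostaglandin synthase, at 0.648, and to Trem1, a myeloid receptor, at 0.733. Cxcr2 was at 9.78, 4.20 and 9.46 in MPN mice 1, 2 and 3, against 3.84 in the control mouse. Ptgs2 was at 11.00, 6.91 and 9.35, against 6.03. Both were high in MPN mice 1 and 3, and Cxcr2 was under background in mouse 2. Il1r2 lay nearest to Ctla2a at 0.246, Ptgs2 at 0.261 and Sla at 0.301, which were likewise highest in mouse 1.

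Of the MPN mice, mouse 2 had the lowest value of all 12 neutrophil genes, by 0.081 to 5.26 below the next mouse. The gap was at least 1 for Ly6g, Mmp9, Cxcr2 and Lcn2, and Mmp9, a gelatinase, was no higher in MPN mouse 2 than in the control. Ly6g, a surface marker of neutrophils, was at 8.59, 6.66 and 7.86 in MPN mice 1, 2 and 3, against 3.40. Mmp8, a neutrophil collagenase, was at 10.77, 10.19 and 11.04 in MPN mice 1, 2 and 3, against 5.90, and Camp, a granule peptide, at 11.67, 11.50 and 11.71, against 8.08. Mouse 2 had the highest marker sum of the MPN mice for the B cell, mast cell and basophil, erythroid, endothelial, and monocyte and macrophage genes. The 7 B cell genes summed to 298, 2731 and 241 in MPN mice 1, 2 and 3, against 1017, with Cd79a and Ms4a1 under background in both groups. The 8 mast cell and basophil genes summed to 560, 2761 and 1731, against 457, with the group means of Ms4a2 and Fcer1a under background, though Fcer1a was above it in MPN mouse 3, at 6.20. Vpreb1, of B cell precursors, was at 4.36, 11.26 and 4.80, against 9.64, and made up most of the B cell sum in mouse 2. The part of these cells in the values of Il1f9 and Il1r2 was not tested. Il33 lay nearest to Rarb, Gfra4 and Slc2a6 at 0.120 to 0.129, with all its values under background.

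**Figure D4:**
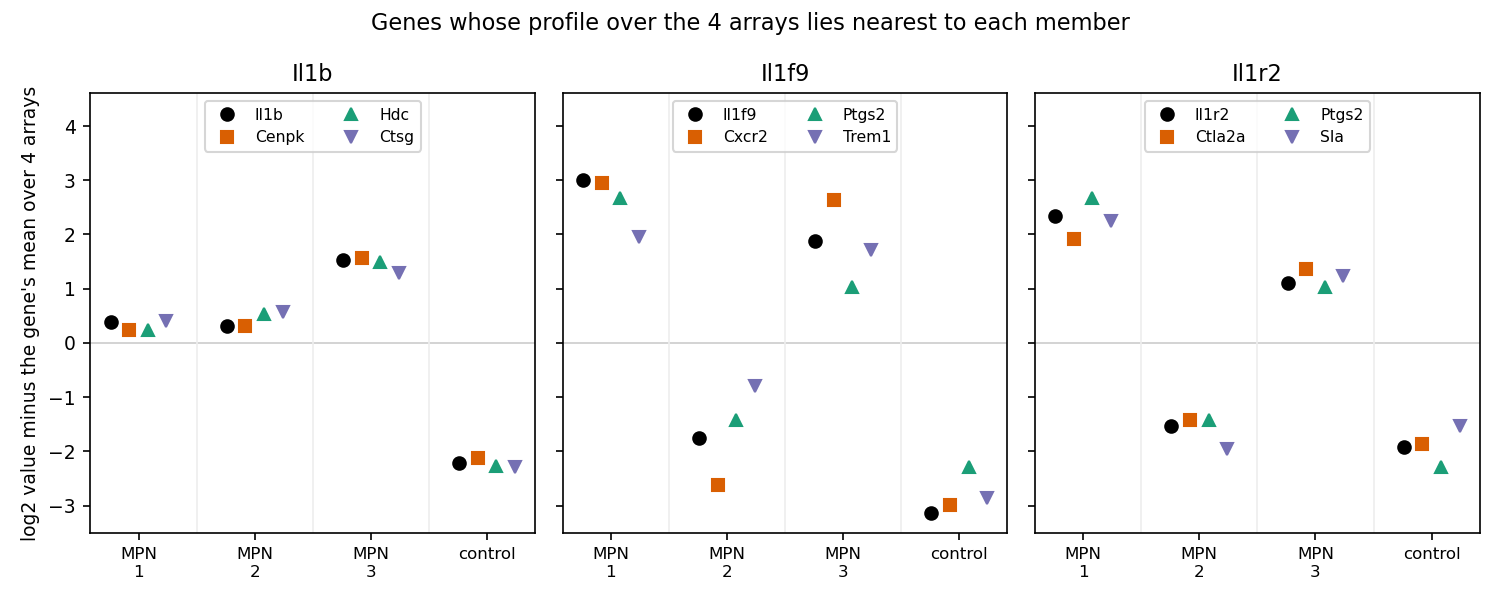
Log2 value less the gene's own mean over the 4 arrays (y axis) on each array (x axis), for Il1b, Il1f9 and Il1r2 and for the 3 genes nearest to each. Il1b and its nearest genes are above their mean in all 3 MPN mice, while Il1f9 and Il1r2 with theirs are above it in MPN mice 1 and 3 and below it in mouse 2 and the control.

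The wider pathway was read from a list of 70 other genes, of which 63 had a value and 48 a group mean above background. Limma's test called 0 of the 63 at an adjusted p of 0.05, as for all genes, while 7 were higher and 3 lower at an unadjusted p under 0.05 (3.97% and 8.63% of all genes). At least 2-fold on each MPN array, 8 were higher (1.13% of all genes) and 3 were lower (5.78% of all genes). The median difference was 0.30, beside 0.18 over all genes, and without MPN mouse 3 the count lower was 6. The rule is easier to pass with fewer arrays, and the share of all genes without that mouse is not given.

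Among receptors and decoys, 5 of 7 genes were measured, and Il18rap, an accessory chain of the IL-18 receptor, was at 5.88, 5.67 and 7.46 in MPN mice 1, 2 and 3, against 4.52. It was at least 2-fold higher on each array, with a difference of 1.81 (SE 0.88). Its control value was under background, so the size of this difference is uncertain. After cyclic loess, or with the arrays brought to one median of the Olfr and Vmn genes, Il18rap was no longer 2-fold higher on each array. The decoy of IL-18, Il18bp, chosen after its values were seen, was at 5.49, 5.49 and 5.34, against 5.86. Together with Il1rl2, these gave 1 gene 2-fold higher and 1 lower, beside 1.13% and 5.78% of all genes. The main receptor of interleukin 1, Il1r1, and that of IL-33, Il1rl1, were not analysed here.

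Of 17 inflammasome genes measured, 2 were at least 2-fold higher and 1 was lower on each MPN array. Among all genes these shares were 1.13% and 5.78%, and the count lower is near its share. Naip2, a sensor of bacterial secretion systems, was at 6.22, 8.44 and 6.07, against 4.72, a control value under background. Its close relatives in the mouse genome may share probes with it. Pycard, the adaptor that joins NLRP3 to caspase-1, was chosen after its values were seen and was at 7.44, 7.96 and 8.12, against 6.38. Its difference was 1.46 (SE 0.35), with limma's adjusted p = 0.277. With the arrays brought to one median, of all genes or of the Olfr and Vmn genes, Pycard was no longer 2-fold higher on each array. The lower gene, also chosen after its values were seen, was P2rx4, an ATP-gated channel, at 4.51, 4.90 and 5.02 against 6.19. Txnip, a redox regulator that can bind NLRP3, was at 6.23, 7.67 and 7.16, against 8.65, and missed 2-fold in mouse 2. Gsdmd, the pore protein that caspase-1 cuts to release interleukin 1 beta, was chosen after its values were seen and was at 6.24, 6.17 and 6.36, against 6.24.

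Neutrophil proteases that can cut cytokines of this family stood farthest from the control of the 6 roles, with a median difference of 2.25 over 4 genes. Of these 4, 3 were at least 2-fold higher on each MPN array, beside 1.13% of all genes. Ctsg was at 10.00, 10.17 and 10.88 in MPN mice 1, 2 and 3, against 7.31, a difference of 3.04 (SE 0.44, limma's adjusted p = 0.154). Elane, neutrophil elastase, was at 9.27, 9.29 and 9.58, against 6.90, a difference of 2.48 (SE 0.21, limma's adjusted p = 0.0901). The third was Prtn3, proteinase 3, chosen after its values were seen, at 8.40 to 8.44 against 6.40. All 3 are granule genes of neutrophils and their precursors, whose marker sum was higher on the same arrays.

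The signalling genes downstream of the receptor had a median difference of 0.15, beside 0.18 over all genes. Of 17 measured, 0 were at least 2-fold higher and 0 lower on each MPN array, beside 1.13% and 5.78% of all genes. For a list of 17 both counts are near these shares, so they do not set the signalling genes apart. Irak2, a kinase of the receptor complex, was 1.89 above the control in MPN mouse 1 but at 5.33 and 5.27 in mice 2 and 3, against 5.11 in the control. Tab2, a partner of the kinase TAK1, was at 5.99, 6.64 and 8.50, against 8.24, and so crossed the control.

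Of 16 measured genes that interleukin 1 is known to induce, 2 were at least 2-fold higher and 1 was lower on each MPN array. Among all genes 1.13% were higher and 5.78% lower by this rule, so the count lower is near its share. The median difference was 0.32, beside 0.18 over all genes. Cxcl2, a neutrophil chemokine, was at 10.50, 10.33 and 10.64 in MPN mice 1, 2 and 3, against 7.19, a difference of 3.29 (SE 0.20, limma's adjusted p = 0.0872). Lcn2, an iron-binding protein that neutrophils also store, was at 10.98, 9.78 and 11.37, against 6.49. The lower gene was Saa3, an acute phase protein, chosen after its values were seen, at 5.19, 4.84 and 4.43 against 7.06. Il6 and Cxcl1, also chosen after their values were seen, gave no such distance. Il6 was at 4.53, 6.38 and 2.73 against 3.72, and Cxcl1 at 7.55, 7.55 and 6.80 against 7.55.

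**Figure D5:**
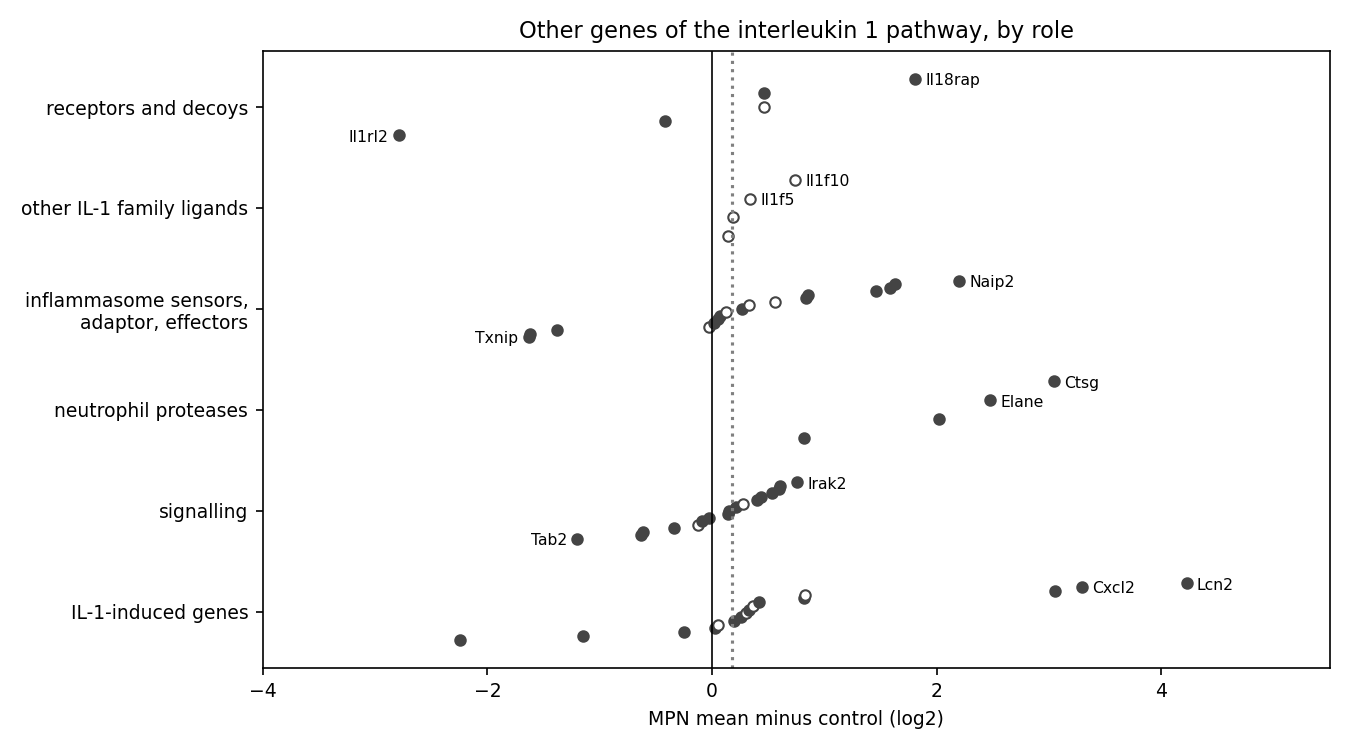
Mean difference of MPN from control (x axis, log2) for the 63 other genes of the pathway, by role (y axis); filled points had a group mean above background, open points did not, and the dotted line is the median of all genes. The 2 genes farthest from 0 in each role are named; signalling genes lie between -1.20 and 0.76, and neutrophil proteases between 0.82 and 3.04.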

How the data were processed

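Arrays of 3 MPN mice and 1 control mouse were used; by its title, each sample is 1 mouse. The deposited log2 values were made by the authors with RMA, per the submitters' processing notes; no build or RMA version is given in the sources used here. RMA compresses differences near background. Precision is limited by the number of arrays, as intensities carry no depth.

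Of 35556 probe sets, 21789 had 1 symbol in the platform's gene table, 1621 had several, and the rest are unnamed here. Per gene, the probe set with the highest mean was used (19938 genes); each of the 10 genes examined had 1 probe set. Differences were fitted with limma 3.58.1 in R 4.3.3 (lmFit, eBayes, two-sided, Benjamini-Hochberg over all genes, threshold 0.05), with 2 residual degrees of freedom. SE is the error of that fit, and SD the spread of 3 MPN arrays. In simulated data for this comparison over 19938 genes, 0% of 200 genes shifted by 2 on the log2 scale were recovered, 53% by 4 and 70.5% by 6.

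The genes, lists, tests and alternatives were chosen with earlier results of these data known. Named were all 10 genes, the 2 of each role in the wider list with the largest difference, and the 3 nearest profiles of Il1b, Il1f9, Il1r2 and Il33; other genes are marked where named, except markers. RefSeq promoters matched 10 of the 10 genes.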

Additional observations from a re-analysis of the deposited data

How the results depend on the processing

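No paired analysis was possible because the control is a single array that carries no number shared with the MPN mice. The alternatives left out each MPN mouse, averaged the probe sets of a gene, dropped genes under background, repeated quantile normalisation, used cyclic loess, aligned the array medians of all genes or of the Olfr and Vmn receptor genes, or put a trend in the variance prior; all probe sets were also tested. In 97 of 97 recomputed differences of the 10 genes the direction was kept and none passed the adjusted threshold (adjusted p from 0.094 to 0.888). Averaging probe sets could not change a difference, as each of these genes had 1 probe set. Dropping genes under background and the trend in the variance prior could not either, as they alter only the error and the adjustment. In those settings the direction and the 2-fold count of a gene were fixed in advance. Leaving out a mouse could likewise not undo a direction or a 2-fold call shared by all 3 MPN arrays. Il1b and Il1f9 were at least 2-fold higher on each MPN array used in all 10 alternatives. For these 2 genes only the changes of normalisation or of array medians could have undone this. When 1 MPN mouse was left out, the count of the 10 genes 2-fold higher ran from 2 to 4 and the count lower from 0 to 1. Their median difference then ran from 0.49 to 0.83, and that of the wider list from 0.20 to 0.29, with 3 to 6 of its genes 2-fold lower. These counts are over fewer arrays, where the rule is easier to pass, and the share of all genes is not given. The change of Il1b less that of Il1r2 ran from -0.47, without MPN mouse 2, to 1.42. Among genes above background the median of the remaining 7 genes was 1.24. Cyclic loess gave 97 genes past the threshold, 1 of the 10 genes lower (Il18) and a wider list median of 0.11. The shift to the receptor genes gave 153 genes past the threshold, Il18 as the 1 lower, medians of 0.32 for the 10 genes and 0.0427 for the wider list, and 1 wider list gene past the threshold, Il1rl2. The cause of these changes was not tested. The median difference of all genes was 0.012 after cyclic loess and -0.078 after the shift to the receptor genes, against 0.18 as deposited.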
